A study of Mus musculus with 2 samples.

Results

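The 9 genes described here are Slit2, Slit3, Robo1, Robo2, Sema3a, Sema3c, Sema3e, Nrp1 and Nrp2, found by symbol among the 32285 genes of the count tables, where each had 1 row. They were selected on measured values, as guidance genes whose levels differed between groups of hair follicle cells in these same libraries, so their levels are given as a description and without a test. Single-cell RNA sequencing was performed on epithelial cells sorted by tdTomato fluorescence from the dermal, hair follicle-bearing fraction of mouse back skin at P1, the first day after birth. There was 1 library labelled WT (PADI4 WT here) and 1 labelled PADI4 cKO, with no treatment, both given as batch 1. The cKO carries floxed Padi4 alleles (Padi4 fl/fl) and K14-Cre, a recombinase driven by the keratin 14 promoter and therefore active in keratinocytes. According to the study the sorted cells carried K14-Cre and the tdTomato reporter, while the protocol text attached to both libraries names K14-Cre Padi4 fl/fl mice only, and the alleles of the mice labelled WT are not spelled out further. The number of animals behind each library is not given in the sources used here.

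Slits are large secreted proteins that bind Robo receptors on the cell surface, and Robo signaling acts on the cytoskeleton through Srgap proteins and so changes adhesion and migration. Class 3 semaphorins are secreted ligands too. Most of them bind a neuropilin, Nrp1 or Nrp2, which holds the ligand while a plexin passes the signal inward, and Sema3e can bind plexin D1 without a neuropilin. Both systems were first described in growing axons, and in skin they are known mainly from nerves and blood vessels, which neuropilins also serve as co-receptors for VEGF.

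The promoters of 4 genes are printed to show how differently composed the start regions of genes with neighboring or opposite expression are. Robo1 and Nrp2 were highest in matrix cells, Slit3 in cells marked by Ret and Sema3e in the outer root sheath. Each is the RefSeq sequence from 250 bases before to 50 bases after a transcript start (GRCm38.p6, plus strand of the chromosome, which is the strand of the gene), and capitals mark the matches to 3 short motifs on either strand. The first motif is the GC box, searched as GGGCGG. The second is the TATA box of many tissue-specific genes, searched as TATAAA. The third is the core bound by TCF/LEF factors, the nuclear effectors of Wnt signaling, searched as CTTTGA. The Slit3 sequence lies at chr11:35121206-35121505, that of Robo1 at chr16:72662899-72663198, that of Sema3e at chr5:14025026-14025325 and that of Nrp2 at chr1:62703067-62703366.
Slit3: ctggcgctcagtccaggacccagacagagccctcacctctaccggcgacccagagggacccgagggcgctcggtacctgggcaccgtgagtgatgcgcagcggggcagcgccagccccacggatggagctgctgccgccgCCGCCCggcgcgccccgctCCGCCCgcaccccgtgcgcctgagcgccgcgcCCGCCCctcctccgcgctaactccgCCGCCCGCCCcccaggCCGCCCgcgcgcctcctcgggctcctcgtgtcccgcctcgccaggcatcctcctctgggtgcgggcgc
Robo1: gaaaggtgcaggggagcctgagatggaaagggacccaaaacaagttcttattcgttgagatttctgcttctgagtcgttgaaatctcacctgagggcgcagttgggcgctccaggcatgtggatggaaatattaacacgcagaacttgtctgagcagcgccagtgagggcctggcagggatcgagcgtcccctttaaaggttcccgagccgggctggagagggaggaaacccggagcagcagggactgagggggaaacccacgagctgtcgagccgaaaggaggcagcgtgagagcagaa
Sema3e: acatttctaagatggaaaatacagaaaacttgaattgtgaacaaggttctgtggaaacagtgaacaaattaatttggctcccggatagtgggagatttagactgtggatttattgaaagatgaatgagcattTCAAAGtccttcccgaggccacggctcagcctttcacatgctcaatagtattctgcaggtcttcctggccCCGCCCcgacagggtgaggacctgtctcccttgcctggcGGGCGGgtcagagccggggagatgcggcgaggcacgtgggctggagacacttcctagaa
Nrp2: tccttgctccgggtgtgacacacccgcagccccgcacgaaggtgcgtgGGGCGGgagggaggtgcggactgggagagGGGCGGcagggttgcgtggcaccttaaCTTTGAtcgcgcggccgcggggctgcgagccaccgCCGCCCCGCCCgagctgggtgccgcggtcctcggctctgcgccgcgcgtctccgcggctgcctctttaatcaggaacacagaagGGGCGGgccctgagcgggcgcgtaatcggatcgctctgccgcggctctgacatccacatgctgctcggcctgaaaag
The Slit3 promoter held 6 GC boxes, some of them overlapping, in a sequence of 78.3% G and C. The Nrp2 promoter held 5 GC boxes and 1 TCF/LEF core 146 bases before the start, whereas the Robo1 promoter, with 57% G and C, matched none of the motifs. In Sema3e there were 2 GC boxes and a TCF/LEF core on the reverse strand 118 bases before the start. Among all 32851 promoters of the table, 35.7% held a GC box, 13.6% a TATA box and 16% a TCF/LEF core, and the median G and C share was 52.7%. Of the other members, Slit2 held 3 GC boxes and the only TATA box of the 9 genes, 28 bases before its start, Sema3c held 3 GC boxes and Nrp1 held 1. Sema3a (41.3% G and C) and the 3 listed starts of Robo2 matched none. A match describes these letters only and was not tested for use by any factor. The printed Robo1 window lies inside the gene span of the annotation, which begins at chr16:72308306, so other start sites of this gene are not shown. The Sema3a window, from chr5:13396534, also lies inside its gene span, which begins at chr5:13125414.

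After filtering, 8070 cells of the PADI4 WT library and 7393 of the library labelled PADI4 cKO were kept, with medians of 14695 and 16208 unique molecular identifiers (UMIs, each marking 1 captured RNA molecule), and 14 droplet barcodes occurred in both. Cells were assigned to marker gates, where a gate holds the cells in which a short list of known markers scored highest and past a minimum, and 28.3% and 27.1% of cells met no gate. Levels are given for 15 epithelial gates with at least 40 cells in each library and ratios between libraries for the 12 with at least 50, while the 15 gates together held 5724 and 5363 cells. Because a gate is cut from a per-cell score, it is a range of cells, and between 15 and 710 of its cells lay near the cut. The Krt15 and Lmo3 gates of the outer root sheath (ORS, the outer layer of the follicle) take the place of the single ORS cluster of the study. The uHF (upper follicle) gate takes that of its basal and suprabasal clusters. The SG (sebaceous gland), IFE (interfollicular epidermis), LPC (lower proximal cup), IRS (inner root sheath) and medulla gates carry the names of its clusters. These gates were cut from markers and not from the clusters of the study. A gate for the cortex, also a cluster of the study, held 2 and 0 cells, so no cortex level is given. The matrix gates are named by Shh, Myb and Dlx4, and the Ret, Sp5 and contractile (Acta2, Tagln, Olfml2b) gates by their own markers. The gate built on Hoxc13, Dlx3, Dlx2, Msx1, Lef1 and Cux1, meant for the germinative layer, had Dsg4, Hes2, Krt35, Krt87 and Krt83 among its leading genes, which are hair shaft genes, and none of its own markers, so it is called the Hoxc13 gate and given no cell type.

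Padi4 itself gave 99 UMIs over the epithelial PADI4 WT cells (0.774 CPM, UMIs of a gene per 1000000 UMIs of the same cells) and 92 in the other (0.709 CPM), with overlapping intervals. Where the deleted exons lie relative to the counted 3′ reads is not given in the sources used here, so this count does not check the label, and the second library is called by its label throughout. Xist was detected without Y-linked genes in 26.8% of epithelial PADI4 WT cells and in 99.7% of those labelled PADI4 cKO, and Y-linked genes without Xist in 59.6% and 0%. The genotype thus cannot be told apart from the sex of the cells in a plain ratio, and ratios within Xist-positive cells are given beside it. With 1 library per genotype there is no replicate, no p-value is given, and every interval is a 95% interval that covers the counting of UMIs or cells alone. In the following, a pair of values gives the PADI4 WT library first and the library labelled PADI4 cKO second. All levels are CPM from UMIs summed over the cells named, and they are compared between gates. Between genes they serve only to pick those named from a pathway list, since CPM is not scaled to gene length.

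**Figure D1:**
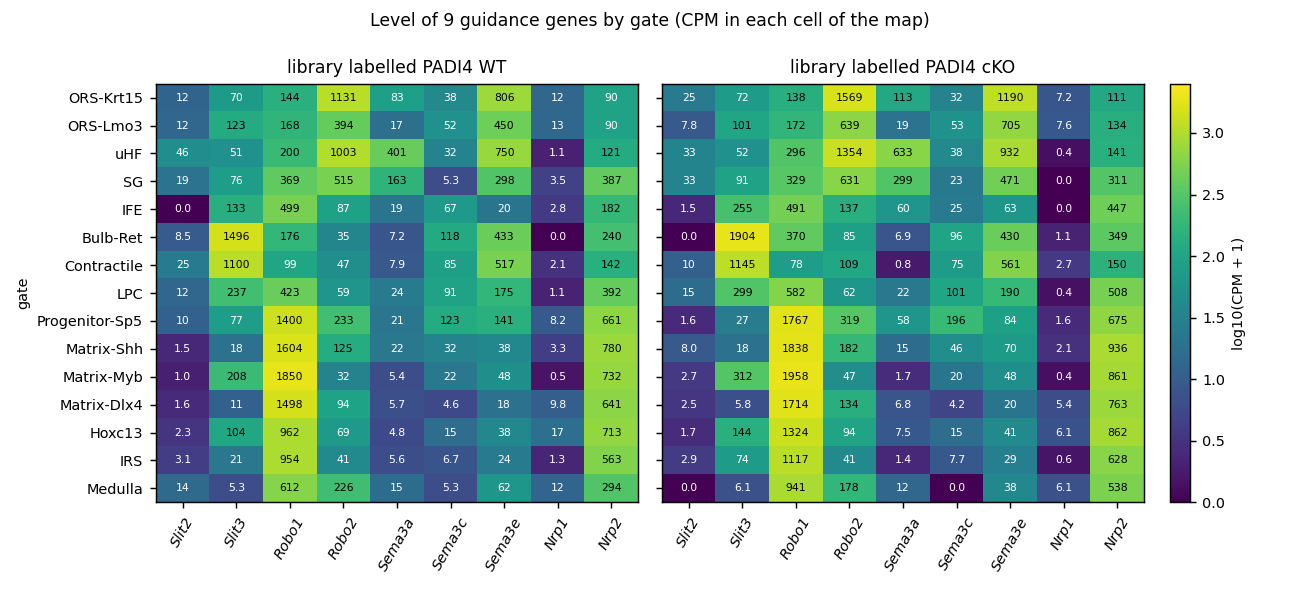
Level of each of the 9 genes (columns, CPM written in each cell, color on a log10(CPM + 1) scale) in 15 marker gates (rows) of the library labelled PADI4 WT (left) and the library labelled PADI4 cKO (right). Robo1 and Nrp2 were high in the matrix, Sp5 and Hoxc13 gates and Slit3 in the Ret and contractile gates. Robo2 and Sema3e were high in the ORS-Krt15 and uHF gates, and Sema3a in the uHF and SG gates. The leading gate was the same in both libraries for 8 of 9 genes.

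Slit3, one of the Slit ligands, was concentrated in the Ret and contractile gates, whose place in the follicle was not tested. It reached 1496 CPM (1414 to 1581) and 1904 CPM (1814 to 1998) in the Ret gate, cells marked by the GDNF receptor Ret and its co-receptor Gfra1, although this gate held only 50 and 45 cells. The contractile gate, cells with smooth muscle actin in which Krt5 was also present, followed with 1100 CPM (1065 to 1135) and 1145 CPM (1104 to 1187). These 2 gates did not overlap with any other in either library. The LPC gate had 237 and 299 CPM and the Matrix-Myb gate 208 and 312 CPM, both above the level in empty droplets (77.6 and 89.8 CPM), which carry free RNA. In the Matrix-Dlx4 gate Slit3 was at 10.5 and 5.83 CPM, and the contractile gate exceeded it 104-fold (87.8 to 125) and 197-fold (153 to 258). Among single cells, 87.9% and 92.8% of the contractile gate had at least 1 Slit3 UMI, against 8.42% and 8.16% of the Matrix-Dlx4 gate. After each cell was thinned to 2000 UMIs these shares were 70.4% and 74.8% against 1.63% and 1.3%. The contractile gate thus stood far above the Matrix-Dlx4 gate at equal depth as well.

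Slit2, the second Slit ligand, was a low gene in these cells. It was highest in the uHF gate, at 46.1 CPM (38.5 to 54.7) and 33.1 CPM (26.6 to 40.8), and in the second library the interval of the uHF gate overlapped that of the SG gate (33.1 CPM). The 130 uHF UMIs of the PADI4 WT library came from 27 of 225 cells. There, 149 Y-positive cells held 106 UMIs (55.7 CPM) and 39 Xist-positive cells held 5 (10.3 CPM). Among Xist-positive PADI4 WT cells the contractile gate stood above the uHF gate, at 52.9 CPM. The ORS-Krt15 gate was at 11.5 and 24.6 CPM and the contractile gate at 25 and 10.0 CPM, so these gates changed places between the libraries. Empty droplets held Slit2 at 13.1 and 10.9 CPM, a level that most gates did not exceed. The IFE gate of the PADI4 WT library had 0 UMIs, which allows up to 1.67 CPM. The few cells gated as fibroblasts, 20 and 6 in number and kept out of the epithelial classes, had 255 and 1032 CPM.

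Sema3e, a semaphorin that signals through plexin D1, was highest in the outer follicle. It stood at 806 CPM (792 to 820) and 1190 CPM (1173 to 1208) in the ORS-Krt15 gate and at 750 and 932 CPM in the uHF gate, with the intervals of these 2 gates apart in both libraries. The ORS-Lmo3 gate had 450 and 705 CPM and the contractile gate 517 and 561 CPM, so their order turned between the libraries. Sema3e was lowest in the Matrix-Dlx4 gate with 17.8 and 19.7 CPM, which the ORS-Krt15 gate exceeded 45.3-fold (39.7 to 51.8) and 60.5-fold (52.7 to 69.7). At equal depth 65% and 73.8% of the ORS-Krt15 cells had a Sema3e UMI, against 3.53% and 2.6% of the Matrix-Dlx4 cells. The Ret gate, which led for Slit3, had Sema3e at 433 and 430 CPM, above its level in empty droplets (151 and 150 CPM). Gm4128, a gene annotated on the opposite strand within Sema3e, followed it closely over the gates (Pearson r = 0.96 over 30 points), and since it is not stated whether counting used the strand, reads of the pair may not be separable.

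Sema3a, the repellent that binds Nrp1, was narrower. The uHF gate had 401 CPM (378 to 425) and 633 CPM (603 to 664), the SG gate 163 and 299 CPM and the ORS-Krt15 gate 83.1 and 113 CPM. These were the 3 highest gates in both libraries. The uHF gate exceeded the ORS-Krt15 gate 4.83-fold (4.46 to 5.23) and 5.63-fold (5.26 to 6.02), and the contractile gate 50.5-fold (34.5 to 77) in the PADI4 WT library. In the other library the contractile gate held 2 UMIs, below the 3 counts taken as the floor, and no fold is given. A Sema3a UMI was found in 73.8% and 80.5% of uHF cells.

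Sema3c, a semaphorin that binds both neuropilins, was spread over the Sp5, Ret, LPC and contractile gates. It was highest in the Sp5 gate, cells with the Wnt-responsive factor Sp5 and Wnt7a, at 123 CPM (102 to 148) and 196 CPM (172 to 223). The Ret gate had 118 and 96.1 CPM, the LPC gate 91.3 and 101 CPM and the contractile gate 85.4 and 74.9 CPM, so the Ret and LPC gates changed places between the libraries. The intervals of the Sp5 and Ret gates overlapped in the PADI4 WT library and not in the other. The IRS gate had 6.68 and 7.71 CPM, and the LPC gate exceeded it 13.7-fold (9.52 to 20.3) and 13.1-fold (8.96 to 19.9).

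Robo1, a Slit receptor, was present in nearly all matrix cells. It was highest in the Matrix-Myb gate at 1850 CPM (1816 to 1885) and 1958 CPM (1926 to 1990), followed by the Matrix-Shh gate at 1604 and 1838 CPM and the Matrix-Dlx4 gate at 1498 and 1714 CPM. The Sp5 gate had 1400 and 1767 CPM, the Hoxc13 gate 962 and 1324 CPM and the IRS gate 954 and 1117 CPM. Robo1 thus ran through the gates of the inner follicle, and the lowest of these, the medulla gate, still had 612 and 941 CPM. The ORS-Krt15 gate was at 144 and 138 CPM and the contractile gate was lowest with 98.9 and 77.9 CPM. The Matrix-Myb gate exceeded the ORS-Krt15 gate 12.8-fold (12.3 to 13.4) and 14.2-fold (13.6 to 14.9). At 2000 UMIs per cell, 85.8% and 89.6% of the Matrix-Myb cells and 20.2% and 20.1% of the ORS-Krt15 cells had a Robo1 UMI. Robo1 in empty droplets was at 458 and 501 CPM, above its level in the ORS gates.

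Robo2, the second Slit receptor, was highest in the gates of the outer follicle. The ORS-Krt15 gate had 1131 CPM (1114 to 1147) and 1569 CPM (1549 to 1589), the uHF gate 1003 and 1354 CPM, the SG gate 515 and 631 CPM and the ORS-Lmo3 gate 394 and 639 CPM. The SG and ORS-Lmo3 gates were apart in the first library and overlapped in the second. In the Matrix-Myb gate, where Robo1 was highest, Robo2 had 32 and 47.1 CPM, and the ORS-Krt15 gate exceeded it 35.4-fold (30.6 to 41) and 33.3-fold (30 to 37.1). Robo2 was also low in the LPC gate, which the ORS-Krt15 gate exceeded 19.2-fold and 25.5-fold. A Robo2 UMI was seen in 75.4% and 78.9% of the ORS-Krt15 cells and in 9.42% and 10.7% of the IRS cells, or in 57.4% and 64.2% against 3.26% and 3.55% at equal depth.

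Nrp2, the neuropilin that binds Sema3c and Sema3f, followed Robo1. It was highest in the Matrix-Shh gate at 780 CPM (757 to 804) and 936 CPM (911 to 961), with the Matrix-Myb gate at 732 and 861 CPM and the Hoxc13 gate at 713 and 862 CPM, and the intervals of the latter 2 overlapped in both libraries. Nrp2 was thus found together with Robo1 in the inner follicle. The ORS-Krt15 gate, the lowest, had 89.7 and 111 CPM, and the Matrix-Shh gate exceeded it 8.7-fold (8.2 to 9.24) and 8.45-fold (8 to 8.93). Nrp2 shares part of its span with Gm29083 on the opposite strand.

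Nrp1, the neuropilin that binds Sema3a and VEGF, was low in every gate. The Hoxc13 gate had 16.7 CPM (14.6 to 19) and 6.09 CPM (4.94 to 7.42), the ORS-Lmo3 gate 13 and 7.62 CPM and the ORS-Krt15 gate 12.2 and 7.15 CPM. The leading gate differed between the libraries, and in neither library was it apart from the next. Empty droplets held Nrp1 at 4.43 and 2.59 CPM. The LPC, uHF, SG, IFE, IRS, Ret, Matrix-Myb and Matrix-Shh gates lay below that level in both libraries. The contractile gate lay below it in the first library (2.06 CPM) and the Sp5 gate in the second. The cells gated as fibroblasts had 264 and 113 CPM and those gated as melanocytes 95.9 and 54.3 CPM, from 20 and 6 and from 22 and 10 cells.

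**Figure D2:**
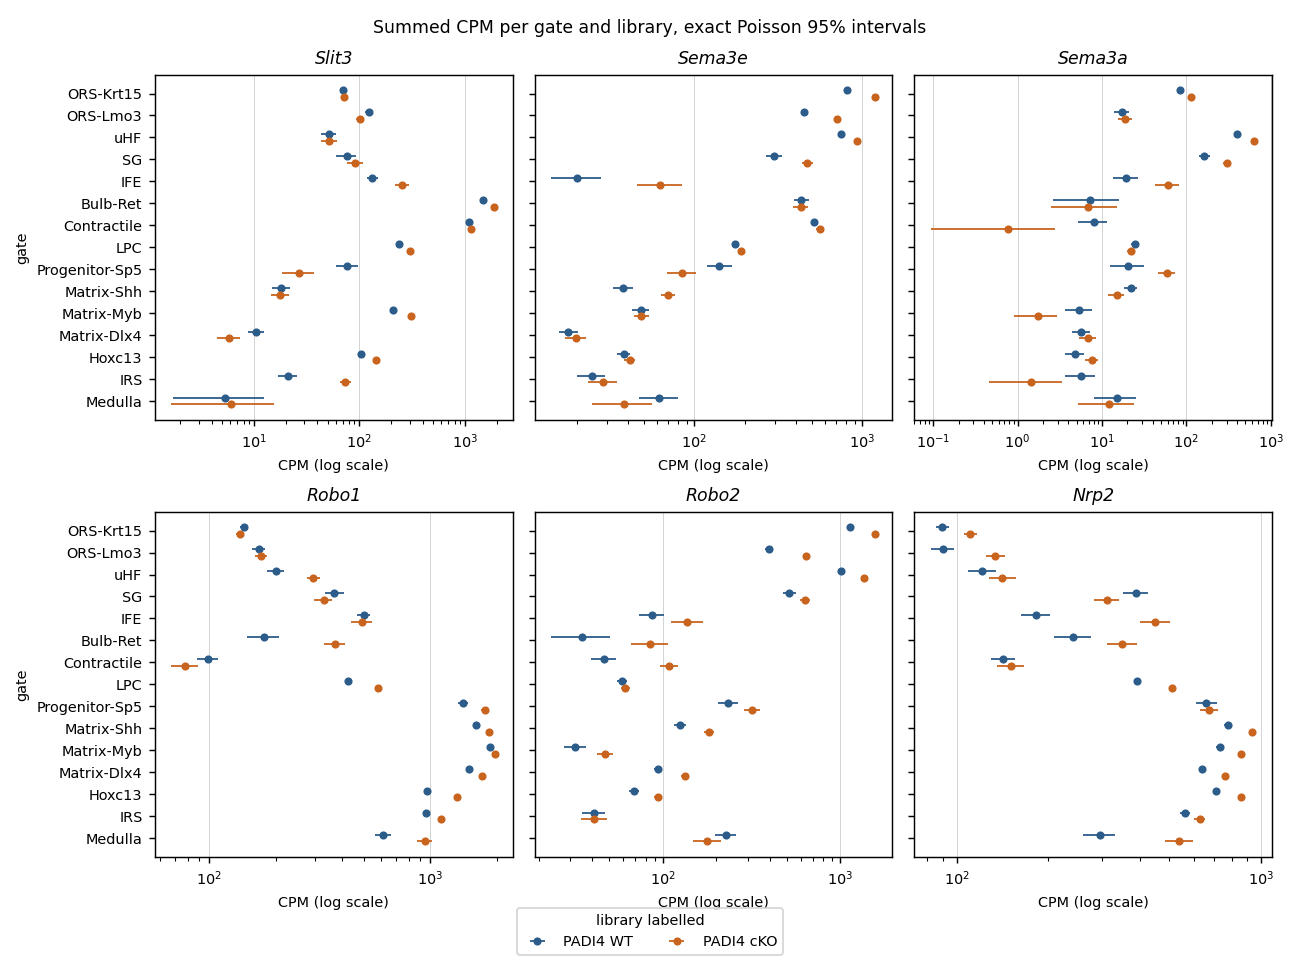
Summed CPM on a log scale with exact Poisson 95% intervals (points and bars) for 6 of the 9 members, by gate and by library (blue, PADI4 WT, orange, library labelled PADI4 cKO). Robo1 and Nrp2 lie higher in the matrix gates than in the ORS-Krt15 gate, while Robo2 lies at 1131 and 1569 CPM in the ORS-Krt15 gate and at 32 and 47.1 CPM in the Matrix-Myb gate.

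In these libraries, 6 of the 9 genes were at least 4-fold higher in 1 gate than in the other gates together, namely Slit2 (4.54-fold), Slit3 (10.9-fold), Robo2 (8.15-fold), Sema3a (16.8-fold), Sema3c (4.05-fold) and Sema3e (5.87-fold). Robo1 reached 2.47-fold, Nrp1 2.32-fold and Nrp2 1.84-fold. Of all 14326 genes with enough UMIs, 14.4% met this limit, and since the members were chosen for their differences between gates nothing is read from their count. The values just inside and just outside were those of Sema3c and Robo1.

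Over the 30 points given by 15 gates in 2 libraries, the levels were correlated on the log2(CPM + 1) scale. Robo1 and Nrp2 had r = 0.92, Robo1 and Sema3e r = -0.84, and Nrp2 and Sema3e r = -0.78. Robo2 and Sema3a had r = 0.81, Slit2 and Sema3e r = 0.73, Slit3 and Sema3c r = 0.63, and Robo1 and Robo2 r = -0.40. Nrp1 was at most 0.42 in size with any other member. The points share libraries and pairs of gates share depth, so these are descriptions and no p is given. In single cells, the genes were counted together after thinning to 2000 UMIs. Robo2 was found in 17.1% and 17.5% of the cells with a Robo1 UMI and in 29.5% and 32.8% of those without, and Nrp2 in 58.8% and 65.8% of the Robo1-positive cells against 24.1% and 29.8%. Sema3e was found in 59.2% and 64.9% of the Robo2-positive cells against 19.9% and 20.4% of the Robo2-negative cells. Within the ORS-Krt15 gate the share of Sema3e-positive cells was 77.2% and 85.3% of those with Robo2 and 48.6% and 53.3% of those without, whereas Robo2 was found about as often with Robo1 (59.2% and 65.7%) as without it (57% and 63.9%). In the uHF gate it was found less often with Robo1 (36.8% and 55.4%) than without (60.1% and 72.7%), from 57 and 56 Robo1-positive cells. In the contractile gate Sema3e was found in 54.5% and 56.7% of the Slit3-positive cells and in 27.9% and 45.7% of the others.

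The genes most like each member over the 30 points, among 10930 genes with at least 1000 UMIs, were as follows. Robo1 was followed by Sinhcaf, Arg2 and Bach2, each with r = 0.94, of which Arg2 is a mitochondrial arginase and Bach2 a transcriptional repressor. Nrp2 was followed by Cct8 (0.96), a chaperonin subunit, Pabpn1 (0.95) and Strap (0.94). Robo2 had Pnrc1 (0.89), Ogt (0.89), the O-GlcNAc transferase, and Heph (0.88), a copper-dependent iron oxidase. Sema3e had, after its antisense neighbor Gm4128, Gm5860 and the glypican Gpc4 (both 0.92). Slit3 had Gm12446 and the forkhead factor Foxe1 (both 0.93). Sema3a had Parm1 (0.90), Tox3 (0.89) and the lactate transporter Slc16a1 (0.89), and Sema3c had the metalloprotease Adamts1 (0.90), the phosphofructokinase Pfkp (0.90) and Frmd4a (0.88). The low genes gave lower values, with Xpo6 (0.77), Srek1ip1 (0.76) and the cation channel gene Trpc4 (0.75) for Slit2 and Cfap300, Nynrin and Aopep (0.67 to 0.69) for Nrp1.

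Leiden clusters, computed without the members, gave levels in smaller groups of cells. Cluster 20, led by Crabp2, Unc5d and Smoc1 with 39 and 52 cells, had Robo2 at 4032 and 4287 CPM and Sema3e at 2224 and 2260 CPM, both above the ORS-Krt15 gate, and Nrp1 at 66.8 and 53.3 CPM. Cluster 14, led by Itga4 and Dio2, had Robo2 at 2327 and 2440 CPM and Sema3e at 1287 and 1615 CPM. Cluster 5, led by C1qtnf7 and Kit, had Robo1 at 1941 and 2232 CPM with Robo2 at 26.3 and 26.6 CPM. In cluster 9, led by Phactr1 and Clstn2, Robo1 was at 1385 and 1383 CPM and its ligand Slit3 at 586 and 753 CPM, with Robo2 at 6.12 and 5.35 CPM. Slit3 was highest in cluster 7, led by Dio3 and Tagln, at 1206 and 1383 CPM. Nrp1 was above its gate levels in cluster 21, led by the hair shaft genes Hes2 and Dsg4, at 47.5 and 19.3 CPM, and in cluster 19, led by Kcnk10 and Ebf1, at 50.6 and 29.2 CPM. Because clusters were computed on other genes of the same cells, they are not an independent measurement.

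**Figure D3:**
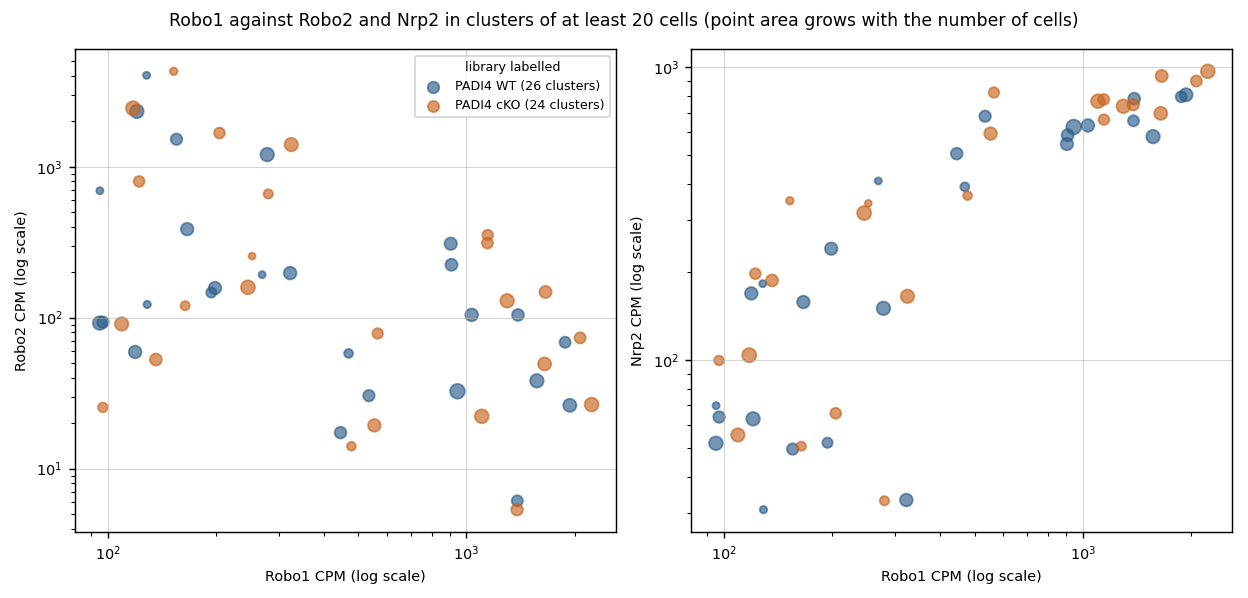
Robo2 (left) and Nrp2 (right) against Robo1, all in CPM on log axes, with 1 point per Leiden cluster of at least 20 cells (blue, 26 clusters of the PADI4 WT library, orange, 24 of the library labelled PADI4 cKO) and point area growing with the number of cells. Clusters with high Robo2, such as cluster 20 at 4032 and 4287 CPM, lie apart from those with high Robo1, such as cluster 5 at 1941 and 2232 CPM, which lie high for Nrp2.

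The fibroblast markers summed to 8.13 and 7.88 CPM over all epithelial cells and to 0 to 15.4 and 0 to 15.1 CPM over the gates, endothelial markers to 1.28 and 1.58 CPM, immune markers to 1.07 and 1.1 CPM and Schwann cell markers to 3.93 and 2.99 CPM. Mural cell markers were highest in the contractile gate at 163 and 213 CPM beside the Slit3 level there. Of these, Myh11 had 22 and 103 UMIs (6.48 and 39.7 CPM), its highest level among the epithelial gates. Rgs5, a defining pericyte gene, was at 0 there and in every other gate, so its absence does not set this gate apart. The keratinocyte keratins Krt5 and Krt14 were at 1103 and 1180 CPM and at 583 and 494 CPM. Melanocyte markers were highest in the medulla gate (76.5 and 106 CPM) and Merkel cell markers in the ORS-Krt15 gate (20.6 and 25.5 CPM), where Robo2 and Sema3e were also highest. In that gate the Merkel value came from Piezo2 in the PADI4 WT library and from Piezo2 and Chga in the other, and the defining markers Atoh1, Isl1 and Sox2 were at 0. Their part in those levels was not tested.

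The second comparison asked how the members differ between the library labelled PADI4 cKO and the PADI4 WT library. Over all epithelial cells, 8 of the 9 genes were higher in the library labelled PADI4 cKO. The median log2 ratio over all genes was -0.01. Of genes with a genomic span of 100 to 300 kb, 57.1% were above 0, and of those from 300 kb on 58.5%. All members fall in these ranges of span. Nrp2 was at 421 and 549 CPM, a log2 ratio of 0.38 (0.37 to 0.40), Robo1 at 751 and 943 CPM, 0.33 (0.32 to 0.34), Robo2 at 298 and 364 CPM, 0.29 (0.27 to 0.31), and Sema3e at 264 and 322 CPM, 0.29 (0.27 to 0.31). Slit3 had 160 and 193 CPM, 0.28 (0.25 to 0.30), and Sema3a 41.8 and 49.1 CPM, 0.23 (0.18 to 0.29). The Slit2 ratio was 0.12 (0.01 to 0.23) from 9.69 and 10.5 CPM, and the Sema3c ratio 0.04 (-0.01 to 0.10) from 41.6 and 42.9 CPM. Nrp1 alone was lower, with 7.32 and 3.52 CPM and a log2 ratio of -1.05 (-1.22 to -0.89). A size of 0.5 on the log2 scale was taken as the limit. Above it lay 0 of the 9 genes and 1.64% of the 14955 genes with at least 100 UMIs, and below -0.5 lay 1 of the 9 and 3.74% of all genes. Whether fewer RNA molecules per cell or a different mixture of cells gave the overall values cannot be seen in them, and values within gates follow.

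Within the 12 gates, 86 pairs of gene and gate had at least 100 UMIs, of which 21 lay above 0.5 and 9 below -0.5, while over all genes 2.6% of 102814 pairs lay above and 3.09% below. The median over the 86 pairs was 0.22 and 64 were higher in the library labelled PADI4 cKO. Over all genes the medians within gates ran from -0.02 (contractile) to 0.07 (IFE). The share of all pairs above 0 is not given. Since the genes were chosen with these values known, the excess over all genes is given without a test. Robo2 was higher in 12 of 12 gates, in 10 of them with an interval above 0, with log2 ratios of 0.47 in the ORS-Krt15 gate, 0.70 in the ORS-Lmo3 gate, 1.22 in the contractile gate (158 and 282 UMIs) and 0.06 in the LPC gate. Sema3e was higher in 11 of 11, in 7 of them with an interval above 0, with 0.56 (0.53 to 0.59) in the ORS-Krt15 gate, 0.65 in the ORS-Lmo3 gate, 0.66 in the SG gate and 0.89 in the Matrix-Shh gate. For Robo2 the interval held 0 in the LPC and IRS gates. These counts are of summed UMIs. With each cell thinned to 2000 UMIs, Robo2 was higher in 10 of the 12 gates and Sema3e in 7 of the 11. Thinned levels of Robo2 were 64.5 and 45.3 CPM in the Matrix-Myb gate and 73.5 and 59.8 CPM in the LPC gate, and those of Sema3e 73.9 and 44 CPM in the Matrix-Myb gate. In the ORS-Lmo3 gate the share of cells with a Robo2 UMI at equal depth was 31.1% and 31.3% beside the ratio of 0.70. In the contractile gate it was 3.88% and 4.32% (8 and 6 cells) beside the ratio of 1.22.

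Nrp2 was higher in 11 of 12 gates, in 10 of them with an interval above 0, and lower in the SG gate at -0.32. Its ratios above the limit were those of the ORS-Lmo3 gate (0.57) and the IFE gate (1.30). The IFE gate also differed in Krt14, at 6514 and 1403 CPM, and held 125 and 50 cells, so the cells gated there were not alike. Over all genes, 12.8% of the ratios in this gate lay above 0.5 and 10.2% below -0.5. Its member ratios, among them Robo2 at 0.66, Slit3 at 0.94 and Sema3c at -1.41, are not read further. They remain in the counts of pairs and gates given in this and the preceding paragraph. Robo1 was higher in 8 of 12 gates, with 0.46 in both the LPC and the Hoxc13 gates, 0.57 in the uHF gate and -0.34 in the contractile gate. Slit3 was higher in 9 of 12, with 0.58 in the Matrix-Myb gate, and lower in the Matrix-Dlx4 gate at -0.85. Its ratio of 1.80 in the IRS gate came from 95 and 259 UMIs, in 17.4% and 20.3% of the cells. In Xist-positive cells the Slit3 ratio was 2.20 in the IRS gate, 0.20 in the Matrix-Myb gate and -0.18 in the Hoxc13 gate (0.47 over all its cells). For the Matrix-Dlx4 gate it was 0.40 (-0.42 to 1.39), from 14 and 61 UMIs. Sema3a was higher in 6 of 8 gates, with 0.66 in the uHF gate and 0.88 in the SG gate, its 2 leading gates, and -0.55 in the Matrix-Shh gate. The uHF value was 0.26 (0.07 to 0.46) in Xist-positive cells, from 39 PADI4 WT cells. Slit2 was higher in 2 of 5 gates, ORS-Krt15 (1.09) and LPC (0.29), and lower in the uHF (-0.47), ORS-Lmo3 (-0.63) and contractile (-1.30) gates. The 372 Slit2 UMIs of the ORS-Krt15 gate labelled PADI4 cKO came from 68 of 1216 cells. In Xist-positive cells the ORS-Krt15 ratio was 0.43 (0.07 to 0.84) and the LPC ratio 0.75. The uHF ratio turned to 1.55 (0.41 to 3.34), from 5 and 89 UMIs. The ORS-Lmo3 (-1.05, 25 and 44 UMIs) and contractile (-2.38, 58 and 26 UMIs) ratios stayed below 0. In the contractile gate of the PADI4 WT library, 71 Xist-positive cells held 58 Slit2 UMIs and 103 Y-positive cells held 11. Nrp1 was lower in 4 of 4, with -1.45 in the Hoxc13 gate, -0.77 in both ORS gates and -0.85 in the Matrix-Dlx4 gate. In Xist-positive cells the Nrp1 ratio was -0.88 (-1.41 to -0.30) in the Hoxc13 gate and -0.01 (-0.61 to 0.68) in the ORS-Krt15 gate, while the ORS-Lmo3 (0.68) and Matrix-Dlx4 (-0.12) values rested on 7 and 43 and on 19 and 57 UMIs.

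**Figure D4:**
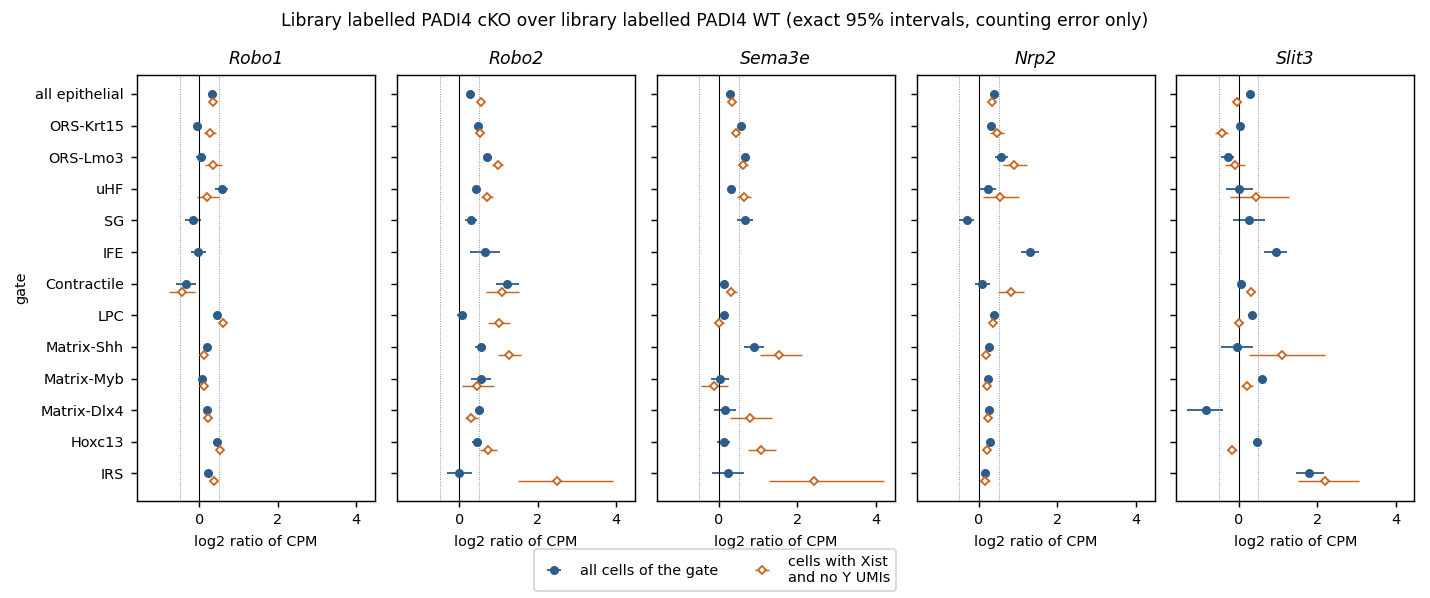
Log2 ratio of CPM (cKO-labelled library over PADI4 WT, x axis) of Robo1, Robo2, Sema3e, Nrp2 and Slit3 over all epithelial cells and by gate, with exact 95% intervals, for all cells (blue) and for cells with Xist and no Y-linked UMIs (orange), and dotted lines at -0.5 and 0.5. Robo2 lies above 0 in 12 of 12 gates (10 with cells thinned to equal depth), and Slit3 goes from 0.28 over all epithelial cells to -0.05 in the Xist-positive cells.

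Restricted to cells with Xist and without Y-linked UMIs, 2150 and 7351 in number, the ratios over all epithelial cells were 0.56 (0.53 to 0.60) for Robo2, 0.72 (0.62 to 0.82) for Sema3a, 0.36 for Robo1, 0.32 for Sema3e and Nrp2, 0.19 for Sema3c and 0.13 for Slit2. Slit3 turned to -0.05 (-0.08 to -0.01), and Nrp1 remained lower at -0.57 (-0.82 to -0.30). Over 10 gates, Robo2 and Nrp2 were higher in 10 of 10, Robo1 and Sema3e in 9 of 10, Sema3a in 6 of 6 and Slit3 in 6 of 9, and Nrp1 in 0 of 2, of which the ORS-Krt15 gate was at -0.01. Inside the PADI4 WT library, cells with Xist against cells with Y-linked UMIs differed by 0.48 in Slit3, -0.33 in Robo2, -0.61 in Sema3a, -0.55 in Nrp1 and by at most 0.09 in size in Robo1, Sema3e and Nrp2. Over 62 pairs of gene and gate this comparison within 1 library had a median size of 0.33, and the 86 pairs between libraries had 0.31. Differences of this size are thus also found between cells of the same library and genotype. In direction, 26 of the 62 pairs within the PADI4 WT library were higher in Xist-positive cells (median -0.11). Between libraries 64 of the 86 were higher in the library labelled PADI4 cKO (median 0.22), and 57 of 67 in Xist-positive cells. These comparisons cover 10 and 12 gates and unequal numbers of cells, so their sizes are not matched for counting error.

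The members are long genes, with annotated spans of 115 kb (Nrp2) to 738 kb (Robo1) of which exons make up 1.03% (Slit3) to 10.3% (Nrp2), and whether intronic reads were counted is not given in the sources used here. The Robo2 span of 520 kb ends at chr16:74411825. Robo2 starts listed at chr16:75092721 and chr16:75447244 lie outside it, so the gene can be longer than this span. Over all genes the median log2 ratio was -0.03 for spans under 10 kb, 0.03 for 100 to 300 kb (1605 genes) and 0.07 from 300 kb on (436 genes), and in the last class 58.5% of genes were above 0. Genes of at least 300 kb took 4.57% and 5% of all UMIs. The ratios of 8 members lay above the median of their span class and that of Nrp1 (145 kb) below it. The part of span in the ratios was not tested.

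**Figure D5:**
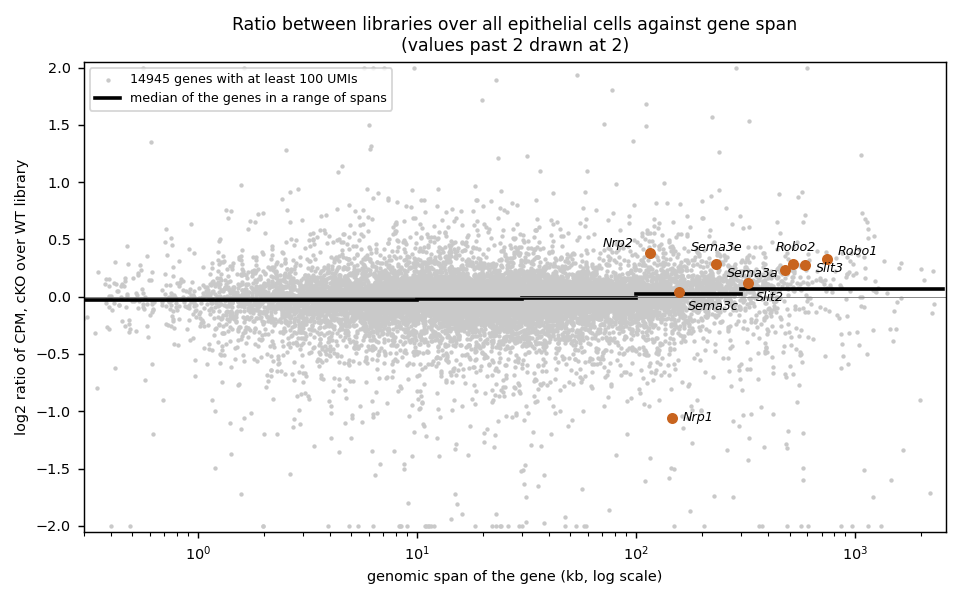
Log2 ratio of CPM over all epithelial cells (cKO-labelled library over PADI4 WT) against gene span in kb (log axis) for 14945 genes (gray), with the 9 members named, black lines for the median of each span class and values past 2 drawn at 2. The medians by span class go from -0.03 for the shortest genes to 0.07 for those of at least 300 kb, and Nrp1 lies at -1.05.

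Of 88 other genes of these pathways, 74 had at least 100 UMIs over all epithelial cells, and 3 lay above 0.5 and 4 below -0.5, with 28 higher and a median of -0.05, against 1.64% and 3.74% of all genes. The ligand Slit1 had 112 and 95 UMIs, and Robo3 (5 and 1 UMIs) and Robo4 (4 and 3 UMIs) were not compared. Among the plexins, which pass semaphorin signals inward, Plxna2 (88.2 and 93.1 CPM), Plxnb2 (38.7 and 34 CPM) and Plxna1 (28.2 and 27 CPM) are the 3 named from their list, none with a ratio past the limit. Plxnd1, given here for its role as the Sema3e receptor, had 104 and 83 UMIs. Of the Robo effectors, Srgap1 was at 258 and 302 CPM and led in the Sp5 gate. Among Robo partners, Sdc4 was at 390 and 341 CPM and Dag1, dystroglycan, at 138 and 119 CPM, and Flrt2, a membrane protein that binds Unc5 receptors, had 1151 and 1158 CPM in the Ret gate, where Slit3 was highest as well. Of the other class 3 semaphorins, Sema3f had 19.6 and 13.5 CPM with a ratio of -0.53, Sema3b 11 and 13.6 CPM and Sema3d 9.44 and 6.84 CPM.

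The transmembrane semaphorins Sema5a (257 and 299 CPM), Sema6a (116 and 123 CPM) and Sema4b (25.2 and 20.4 CPM) are named from the other semaphorins, with Sema6a highest in the ORS-Krt15 gate at 249 and 297 CPM and Sema5a in the Sp5 gate. Sema7a, a membrane-anchored semaphorin with 95 and 53 UMIs, had a ratio of -0.86. Among neuropilin partners, the adhesion molecule Nrcam had 11.8 and 18.2 CPM (0.63) and L1cam had 4.22 and 2.92 CPM (-0.53). Netrin receptors gave the ratios of the largest size among the 74 genes, with Unc5d at 0.91 (239 and 456 UMIs) and Unc5c at -0.97 (116 and 60 UMIs), and the ligand Ntn3 at 0.63. Neo1 was at 263 and 286 CPM. The cytoskeletal genes Farp1, Mical3, Mical2, Evl and Enah, and Vegfb and Chl1, had ratios within 0.5 in size.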

How the data were processed

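The authors deposited 1 table of whole-number UMI counts for each library, with genes as rows and droplets as columns, made with Cell Ranger 7.1.0 on mm10 from Chromium 3′ v3.1 reads, unnormalized and with empty droplets included. Whether intronic reads were counted, and with which strand setting, is not given in the sources used here. Reads may not separate Sema3e from Gm4128, Nrp2 from Gm29083, Slit2 from Gm20475 and 4930518C09Rik, or Slit3 from Gm12122, whose annotated spans overlap. The background removal (CellBender) and Harmony correction of the study were not run.

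The limits for a cell followed the study: a UMI total of 2000 to 60000, a gene number of 1000 to 8000, no more than 20% of UMIs from mitochondrial and 1% from hemoglobin genes, and a ribosomal share between the 5th and 99th percentiles. Free RNA made up at most 7.99% and 6.89% of epithelial UMIs. Doublets were scored with Scrublet. Its own threshold called 2 cells of the PADI4 WT library, so 0.204, found for the library labelled PADI4 cKO, was applied to each (256 and 297 cells, 3.17% and 4.02%), and these cells were left out only in an alternative.

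A cell entered the gate of its best marker list when the list's score reached 0.3, led the next by 0.05 and at least 2 markers were detected (3 for non-epithelial lists). Levels are summed UMIs as CPM with exact Poisson intervals, shares have exact Clopper-Pearson intervals, and log2 ratios, with 0.5 UMI added, have exact conditional binomial intervals at 95%. A count of 0 was given a floor of 3 counts. Genes under 100 UMIs over both libraries in the cells compared got no ratio, apart from some in Xist-positive cells that are given with their UMIs. On simulated counts with known changes the intervals were checked for coverage.

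The 9 genes, gates and pathway lists were chosen with earlier results of these data known. Named pathway genes are the 3 highest of each list and those past 0.5 in size, and genes most like a member are the 3 with the highest Pearson r, of which 1 is not reported here. Choices made after looking at the data were details of the gate score, the minimum of 40 cells, the doublet threshold, the equal weighting of classes and the comparison of Xist-positive with Y-positive cells within 1 library. There were 15 fixed alternatives and 1 added. Tools were Python 3.11.15, NumPy 2.4.6, SciPy 1.17.1, pandas 2.3.3, Scanpy 1.11.5 and Matplotlib 3.10.9.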

Additional observations from a re-analysis of the deposited data

How the results depend on the processing

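With Leiden clusters in place of gates, 6 of 18 leading classes (9 genes in 2 libraries) were those reported. A cluster took the name of its most frequent gate, and no cluster carried the name of the uHF, Ret or Sp5 gate. Slit2, Slit3, Sema3a and Sema3c therefore could not keep their leading class. The count of 6 thus does not show how far the order of the gates depends on grouping. With Xist-positive cells alone 10 were those reported, as small gates fell under 40 cells. Thinned to 2000 UMIs per cell, 5 genes in place of 8 had the same leading gate in both libraries. Over all epithelial cells, 245 genes lay above 0.5 as reported and 140 after thinning, 418 with a minimum of 50 UMIs, 87 with 500, 2850 with none and 411 with the gates weighted equally. Below -0.5 lay 559 genes, and 233 after thinning, 359 in Xist-positive cells, 215 with a minimum of 500 UMIs and 3949 with none. Above 0.5 lay 0 members as reported, 2 in Xist-positive cells (Robo2 and Sema3a) and 1 with equal weights (Sema3a). Of the pairs of member and gate, 21 lay above 0.5 as reported, 9 with clusters and 7 after thinning, and 9 lay below -0.5 as reported, 2 after thinning, 1 in Xist-positive cells, 0 with a minimum of 500 UMIs and 18 with none. The cause of the changes under thinning and in Xist-positive cells was not tested. Slit3 turned to -0.05 in Xist-positive cells, and Sema3c to -0.05 after thinning and -0.04 with equal weights. The other 7 genes kept their sign over all epithelial cells in all 16 alternatives, with Nrp1 between -1.08 and -0.57, Robo1 between 0.20 and 0.36 and Robo2 between 0.22 and 0.56. No paired analysis was possible because each genotype has 1 library. Counting error limits Nrp1, Slit2 and the gates of few cells most, and no value here speaks of animals.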

Other observations

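Some clusters held members at other levels than the gates. Cluster 13, led by the protease inhibitor genes Stfa1 and Stfa3 and the suprabasal keratin Krt1, had 389 PADI4 WT cells and 115 cells labelled PADI4 cKO. Its Sema3a level was 140 and 756 CPM, its Sema3e level 134 and 488 CPM, its Robo2 level 197 and 660 CPM and its Slit2 level 14 and 185 CPM, while Slit3 (8.27 and 9.86 CPM) and Nrp2 (33.3 and 33.1 CPM) were alike in value and Sema3c was lower in the second (112 and 41.5 CPM). With 1 library per genotype these differences have no replicate check. Cluster 17, led by Tlx1 and Kcnip4, had 45 cells of the PADI4 WT library and 0 of the other, with Sema3a at 193 CPM, Nrp1 at 81.6 CPM and no Slit2 UMIs. Cluster 8, led by Hcar2 and Spon1, had Slit3 at 482 and 469 CPM beside Sema3e at 380 and 408 CPM.

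Among genes of the same pathways that led a gate, the netrin receptor Unc5b was highest in the medulla gate, at 296 and 225 CPM against 38.2 and 32.3 CPM over all epithelial cells. The netrin Ntn4 was highest in the Ret gate at 85.7 and 106 CPM, where Slit3 and Flrt2 were highest as well. The actin regulator Mical2 was highest in the contractile gate, at 454 and 575 CPM.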
